A study of Aedes aegypti and Anopheles culicifacies with 47 samples.

Results

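The comparison of 6pm with 6am in the olfactory tissue of adult female *Aedes aegypti*, a mosquito that bites by day, took in 5 libraries, of 31 with a count file and 47 listed in the series. These were 2 libraries at 6am (replicates 1 and 3) and 3 at 6pm (replicates 1, 2 and 3), chosen by species, tissue and clock time in their titles. The tissue was the antennae, maxillary palps, proboscis and labium of wild-type females 5 to 6 days old, reared in 12 h of light and 12 h of dark with no other treatment. All groups used here share that genotype, age and light cycle, and *Aedes* brain served as the tissue set beside it. The study set out to compare the daily rhythm of gene expression between a day-biting and a night-biting species. The labels call the replicates biological and do not say how many females made up a library, so p-values measure the spread between these libraries.

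Daily rhythms of expression in insects arise from a feedback loop in which clock proteins repress their own transcription, and the loop drives output genes that peak at set times of day. In *Drosophila*, antennal neurons carry such a clock of their own, and the response of the antenna to odours varies over the day. Perireceptor events are the steps around odorant receptors, in which binding proteins carry odours and enzymes degrade them.

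The files list genes by AAEL identifier and give no names, and 0 of 19804 identifiers matched the RefSeq name table at hand (AaegL5.0). Genes are therefore given without names or roles, at most 2 identifiers are printed for each direction of change, and clock, odorant-receptor and cell-type marker lists could not be looked up. The tissue label was for that reason not checked against markers. Across 9537 genes, as a description, the lowest Pearson correlation between 2 olfactory libraries was 0.854 and the highest between an olfactory and a brain library was 0.628.

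Reads assigned to genes numbered 2730126 and 2082503 in the 6am libraries (replicates 1 and 3) and 3310403, 839645 and 6436814 in the 6pm libraries (replicates 1, 2 and 3). The shallowest library, 6pm replicate 2, therefore has the largest counting error. The 6am libraries were not more alike than the least alike pair of 6pm libraries. Across 8734 genes the correlation of the 6am libraries was 0.883. By contrast, 6am replicate 3 reached 0.937 with 6pm replicate 3 and 0.962 with the 12am library, and 6am replicate 1 was closest to 12pm replicate 1, at 0.927. The 3 pairs of 6pm libraries lay between 0.885 and 0.947, and the 12pm pair was at 0.898. The lowest correlation across these genes, 0.838, was that of 12pm replicate 2 with 6pm replicate 1. The share of reads outside annotated genes was 24.3% in 6am replicate 1 and 12.1% in 6am replicate 3, which enclosed the 6pm values of 14.9 to 17.3%. It was 35.0% in 12pm replicate 2, whose counts also entered the fit below. The part that these library differences play in the results below was not tested.

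**Figure D1:**
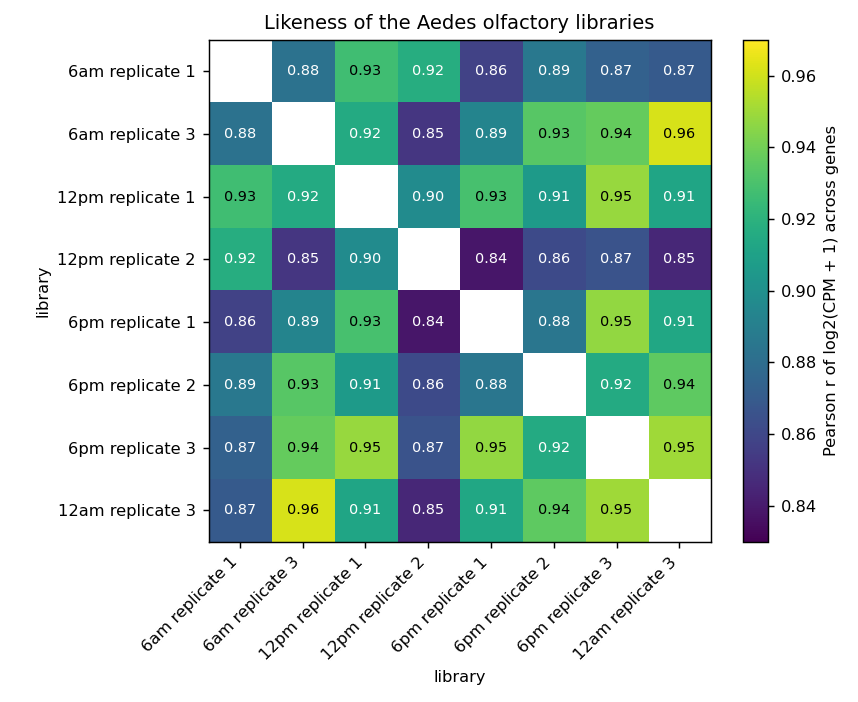
Pearson correlation of log2(CPM + 1) between each pair of the 8 *Aedes* olfactory libraries, across 8734 genes that averaged 10 or more counts (both axes list libraries, colour and printed value give the correlation). The 2 libraries of 6am correlate at 0.883, below several pairs from different clock times.

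Between 6am and 6pm, 9 of 9947 genes tested changed (adjusted p below 0.05, quasi-likelihood test of edgeR with Benjamini-Hochberg adjustment), which is 0.0905% of the genes tested. Of these, 3 were higher at 6pm (0.0302%) and 6 were lower (0.0603%). Their changes were large: the 3 that rose did so by 2.36 to 3.37 on the log2 scale, and the 6 that fell changed by -1.89 to -6.40. In bulk tissue, fewer cells of a type and less RNA per cell cannot be told apart. In all 9 the 6pm libraries lay wholly above or wholly below the 6am libraries, a pattern shown by 22.4% of all genes tested (10.8% above and 11.6% below). The fit held all 8 *Aedes* olfactory libraries, the 2 at 12pm and the 1 at 12am included, so that the 4 clock times shared an estimate of the spread. In a fit of the 5 libraries of 6am and 6pm alone, which tested 8854 genes, the count was 0 (edgeR; 556 had an unadjusted p below 0.05, while DESeq2 with all 8 libraries called 27), with an adjusted p of 0.0525 for the 2 genes named below that fell.

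The count also moved with single libraries. Leaving out 6pm replicate 3 gave 0 calls (edgeR; 313 genes had an unadjusted p below 0.05) and leaving out 6pm replicate 1 gave 1. Leaving out 6am replicate 1 gave 2 calls, and 12pm replicate 1 or 2 gave 3 or 4. The highest count, 35, came without 6am replicate 3. Of those 35 genes, 7 were among the 9. Where a 6am library was left out, the remaining one was taken to vary as much as libraries from the rest of the day.

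**Figure D2:**
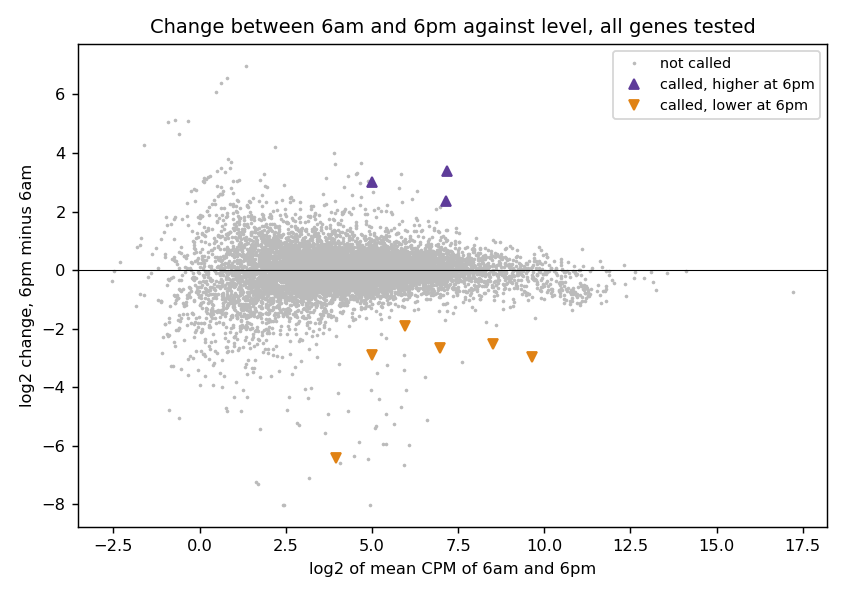
Log2 change from 6am to 6pm (vertical axis) against the log2 of the mean CPM of both clock times (horizontal axis) for the 9947 genes tested, 1 point per gene. The 3 triangles pointing up and the 6 pointing down are the called genes, and grey points reach further from 0 at low levels and in a tail below -4.

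AAEL003269 was the gene with the smallest p among those higher at 6pm. It was at 181, 334 and 277 CPM (counts scaled to library size, after TMM normalisation) in the 6pm libraries (replicates 1, 2 and 3) and at 33.0 and 17.4 CPM in the 6am libraries (replicates 1 and 3). The lowest 6pm library was thus more than 5 times the highest 6am library. Its mean rose from 25.2 ± 11.03 (SD, n = 2) to 264 ± 77.1 CPM (SD, n = 3), a log2 change of 3.37 (SE 0.44, adjusted p = 0.0114, edgeR). Over the day it was intermediate in the 12pm libraries, at 68.8 and 43.5 CPM, and at 40.2 CPM in the 12am library, so that 6pm stood above the other 3 clock times. Its call was kept without each library in turn, with a log2 change of 2.99 to 3.93, except without 6pm replicate 3, where the adjusted p was 0.0787; it was 0.0632 with the 6am and 6pm libraries alone.

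AAEL000519 was at 87.7, 35.5 and 47.1 CPM at 6pm and at 6.44 and 7.69 CPM at 6am, where each library held 15 counts. Again the groups did not overlap, though the 6pm libraries spread over more than a factor of 2. The mean rose from 7.06 ± 0.888 (SD, n = 2) to 56.8 ± 27.4 CPM (SD, n = 3), a log2 change of 3.03 (SE 0.47, adjusted p = 0.0264, edgeR). The 12pm libraries lay between the groups, at 17.5 and 18.5 CPM, and the 12am library, at 6.93 CPM, was back within the 6am range. This call was lost without 6am replicate 1 (adjusted p = 0.287), 6am replicate 3 (0.0703), 6pm replicate 1 (0.122), 6pm replicate 3 (0.0822), 12pm replicate 1 (0.0889) or 12pm replicate 2 (0.0876), while the log2 change stayed at 2.55 to 3.24.

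The other gene that rose had 221, 311 and 177 CPM at 6pm and 57.5 and 33.8 CPM at 6am. Its fitted increase was 2.36 on the log2 scale (SE 0.38, adjusted p = 0.0349, edgeR). It stayed at 55.4 and 55.5 CPM at 12pm, within the 6am range, and was at 133 CPM in the 12am library. Its 12pm libraries thus sat with 6am and its 12am library between 6am and 6pm, whereas the 12pm libraries of AAEL000519 were already above its 6am libraries. Its call was lost without each of the 8 libraries (adjusted p = 0.0546 to 0.148), and its line was close to a damaged section of a file.

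Among the genes that fell, AAEL012425 had the smallest p. It was at 48.1 and 65.6 CPM in the 6am libraries and at 7.84, 4.89 and 8.51 CPM in the 6pm libraries. The replicates were close together on both sides, the 6am libraries within a factor of 1.5 of each other. The 6pm values came from 31, 4 and 60 counts (replicates 1, 2 and 3), so counting error is large in replicate 2. Its mean dropped from 56.8 ± 12.4 (SD, n = 2) to 7.08 ± 1.92 CPM (SD, n = 3), a log2 change of -2.91 (SE 0.36, adjusted p = 0.0114, edgeR). The 12pm libraries, at 43.9 and 32.4 CPM, lay just below 6am, and the 12am library had 16.3 CPM, between 6pm and 12pm. The call was lost without 6pm replicate 1 (adjusted p = 0.0763) or 6pm replicate 3 (0.0787), and the log2 change was -3.08 to -2.66 with 1 library left out.

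AAEL000229 showed the largest change among the 9. Its 6am libraries held 48.5 and 13.3 CPM, from 113 and 26 counts, and it was at 0.253, 0 and 0.426 CPM at 6pm, from 1, 0 and 3 counts. The gene was nearly undetected at 6pm, and the 6am libraries differed from each other by more than a factor of 3. Its log2 change was -6.40 (SE 0.81, adjusted p = 0.0114, edgeR), whose size depends on those 4 counts. The 12pm libraries, at 4.99 and 1.85 CPM, and the 12am library, at 0.894 CPM, were also far below 6am. Without 6am replicate 1 the change was -5.20 and the adjusted p 0.371. Leaving out 6pm replicate 1 or 3 gave adjusted p of 0.0763 and 0.0787.

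The other 4 genes that fell were at higher levels, with means of 98.1 to 1407 CPM at 6am and 26.2 to 182 CPM at 6pm, and adjusted p of 0.0137 to 0.0223 (edgeR). In the most counted of them the 6am libraries were at 1865 and 948 CPM and the 6pm libraries at 134, 285 and 128 CPM, a log2 change of -2.96 (SE 0.43). The line of that gene, too, was close to a damaged section. The smallest change of the 9 was also the one with the closest replicates, at 103 and 92.8 CPM at 6am and 27.6, 24.5 and 26.7 CPM at 6pm, a log2 change of -1.89 (SE 0.28). Each of these 4 calls was lost without 5 or 6 of the 8 libraries, with adjusted p of up to 0.148, 0.158, 0.158 and 0.206.

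The position of 12pm differed among the called genes. They were called for a wide gap between 6am and 6pm, into which libraries of other clock times fall more readily. The share of all genes with 12pm or 12am between the groups was not counted. In 6 of the 9 both 12pm libraries lay between the 6am and 6pm libraries, namely 2 of the 3 that rose and 4 of the 6 that fell. In the other 3, both 12pm libraries were still within the 6am range or further from 6pm than it: 1 that rose and 2 that fell. The 12am library lay between both groups in 7 of the 9, in the 6am range in AAEL000519 and in the 6pm range in the most counted gene that fell. The 12pm and 12am values come from 2 libraries and 1 library and are given as levels. A comparison with 6am shares the 6am libraries. For 12pm against 6am, 0 of 9947 genes tested were called (edgeR).

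**Figure D3:**
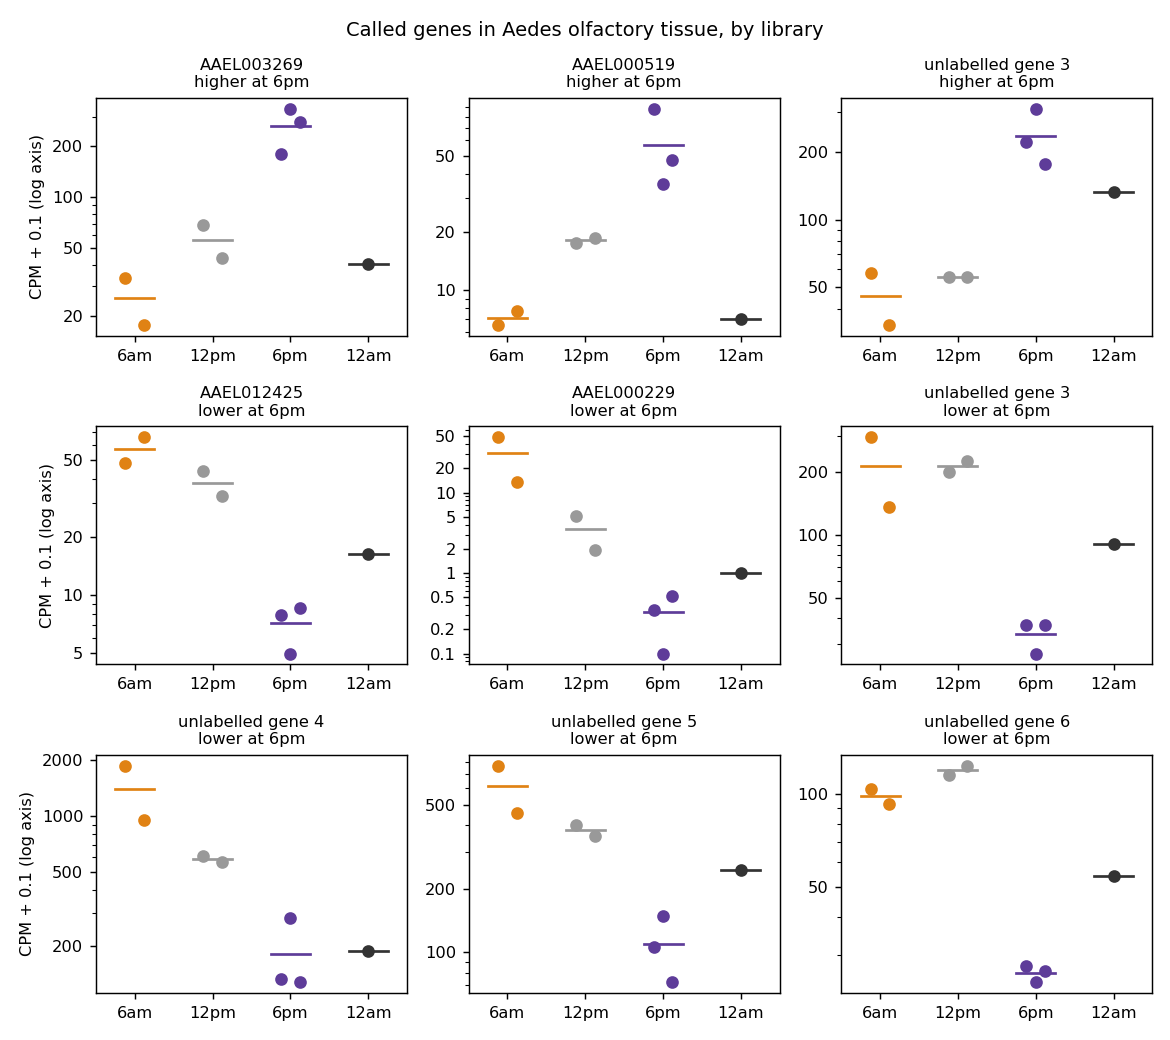
CPM + 0.1 (log axis) of the 9 called genes in each of the 8 *Aedes* olfactory libraries by clock time, with points for libraries and bars for group means. At 6pm all 3 points lie above the 6am points in the 3 upper panels and below them in the 6 lower panels, and 12pm lies between in 6 of the 9.

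Set against all genes, the typical change from 6am to 6pm was small. The median log2 change over the 9947 genes was -0.01, and its quartiles were -0.40 and 0.36. A log2 change of at least 1 in size was fitted for 1354 genes (13.6%), 609 higher and 745 lower at 6pm, and of at least 2 for 319 genes (3.21%), 123 higher and 196 lower. Before adjustment, 603 genes (6.06%) had p below 0.05, of which 264 were higher (2.65%) and 339 lower (3.41%). That count of 603 was 279 with 6pm replicate 1 left out, 313 with 6pm replicate 3 left out and 1399 with 6am replicate 3 left out. Dropping 6am replicate 3 also raised the number with a log2 change of at least 1 in size to 2605 and of at least 2 to 721, and dropping the 12am library lowered the latter to 176. The size of change was smaller at higher levels: with genes split into 4 bins by mean CPM, its median was 0.67 in the lowest bin and 0.29 in the highest. Of the 9 called genes, 6 were in that highest bin and 0 in the lowest, where 106 of 2487 genes had an unadjusted p under 0.05 (edgeR).

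Some uncalled genes had larger fitted changes than most called ones. Uncalled genes with an unadjusted p under 0.05 (edgeR) and a mean of at least 5 CPM in the higher group numbered 249 higher and 315 lower at 6pm. All 6pm libraries lay above 6am in 10.8% and below in 11.6% of the 9947 genes tested, and a low p favours such separation. With no overlap between the groups required as well, 194 were higher and 252 lower at 6pm. The number higher was 108 when 6pm replicate 1 was dropped, 113 for 6pm replicate 3, 399 for 6pm replicate 2 and 631 for 6am replicate 3. The number lower was 131 when 6pm replicate 1 was dropped, 125 for 6am replicate 1, 381 for 6pm replicate 2 and 689 for 6am replicate 3, and fewer libraries overlap less often by construction. The 6 with the largest fitted change in the lower direction had 0 to 12 counts in all 3 libraries of 6pm together and 30 to 556 counts in the 6am libraries, and their adjusted p was 0.0978 to 0.714 (edgeR). In 5 of these 6 most of the 6am signal was in replicate 1: the widest gap was 228 CPM there against 12.3 CPM in replicate 3. The 6 with the largest fitted change in the higher direction had adjusted p of 0.336 to 0.687 and 0 to 48 counts at 6am, and in 1 of them 6pm replicate 3 was at 65.1 CPM where the other 6pm libraries were at 10.6 and 8.56 CPM. These genes were picked for a large fitted change without a call, so their spread between replicates says nothing of other genes.

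Absence from every library of 6am or of 6pm, with a count in every library of the other group, was seen mostly at very low counts. Of the 19398 genes with a readable count in every library, 57 had 0 counts in both 6am libraries and at least 1 in every 6pm library. Their median was 7 counts summed over 6pm, and the highest sum was 58. The reverse held for 60 genes, with a median of 2 counts summed over 6am and a highest sum of 46. Most of these genes were too low to be tested, 4 and 3 of them were tested, and 0 were called (edgeR). The groups differ in number and depth of libraries, so 57 and 60 are not compared. Other clock times were not part of this check, and the genes with the sums of 58 and 46 had counts there too.

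The most counted gene of the tissue, AAEL006259, singled out after its values were seen, took 16.4 and 18.02% of the counts in the 6am libraries and 9.21, 16.5 and 10.7% in the 6pm libraries. The ranges of these shares, taken before TMM scaling, overlapped, since 6pm replicate 2 was above 6am replicate 1. After TMM scaling all 6pm libraries were below both 6am libraries, as in 11.6% of all genes tested. Its log2 change of -0.74 (SE 0.46) was not called (adjusted p = 0.805, edgeR). A gene of this size sets part of every other gene's share, and TMM scaling, whose factors were 0.856 and 0.938 at 6am and 1.20, 0.976 and 1.097 at 6pm, was used to reduce that.

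The next comparison asked whether the change from 6am to 6pm differed between olfactory tissue and brain, where 2 libraries were used at each clock time. In a fit of all 16 *Aedes* libraries, 0 of 11441 genes had a different change at an adjusted p under 0.05 (edgeR, 0% called; 464 at an unadjusted p under 0.05, 4.06%), and DESeq2 called 1. The 464 became 1392 when olfactory 6am replicate 3 was dropped and 216 when brain 6am replicate 3 was dropped, with 0 called in both. In brain alone 0 of 9577 genes changed between 6am and 6pm (edgeR; 364, or 3.8%, had an unadjusted p below 0.05). The brain change had the same sign as the olfactory change in 8 of the 9 called genes, and over all genes of the fit in 54.6%.

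For AAEL003269 the brain libraries held 4.38 and 4.18 CPM in the morning and 6.78 and 10.5 CPM in the evening, higher at 6pm without overlap. The share of all genes without overlap in brain was not counted, and 2 against 2 libraries overlap less often by construction. The log2 change in brain was 1.00 (SE 0.42, unadjusted p = 0.0327, edgeR) and was not called. The change in olfactory tissue was larger by 2.37 (SE 0.56, unadjusted p = 0.00101, adjusted p = 0.947, edgeR). For AAEL012425 the brain libraries overlapped, at 13.4 and 8.85 CPM at 6am and 14.7 and 12.2 CPM at 6pm. The difference between the tissues was -3.17 (SE 0.65, unadjusted p = 0.000273, adjusted p = 0.947, edgeR). After adjustment neither difference passed, which does not show that the tissues changed alike.

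AAEL000519 was near absent from brain. It had 0 counts in both 6am libraries and 9 and 6 counts in the 6pm libraries. With the 6am group set at a floor of 3 counts, 6pm was 3.98-fold higher. The 6pm counts were taken as they stand, so this is not a firm lower bound. Floors of this kind cover counting error at 6am only, not the spread between libraries. The brain change of this gene was not called (adjusted p = 0.656, edgeR, fit of 16 libraries). AAEL000229 varied widely in brain, at 145 and 6.27 CPM at 6am and 36.4 and 52.2 CPM at 6pm, where the groups overlapped; the higher 6am library was replicate 1, as in olfactory tissue. The third gene that rose in olfactory tissue had 15.1 and 11.4 CPM in brain at 6am and 124 and 66.1 CPM at 6pm. These did not overlap, a pattern whose share over all genes was not counted in brain. The log2 change in brain was 2.83 (SE 0.54, adjusted p = 0.508, edgeR), and the change in olfactory tissue differed from it by -0.47 (SE 0.69), a difference smaller than its error.

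**Figure D4:**
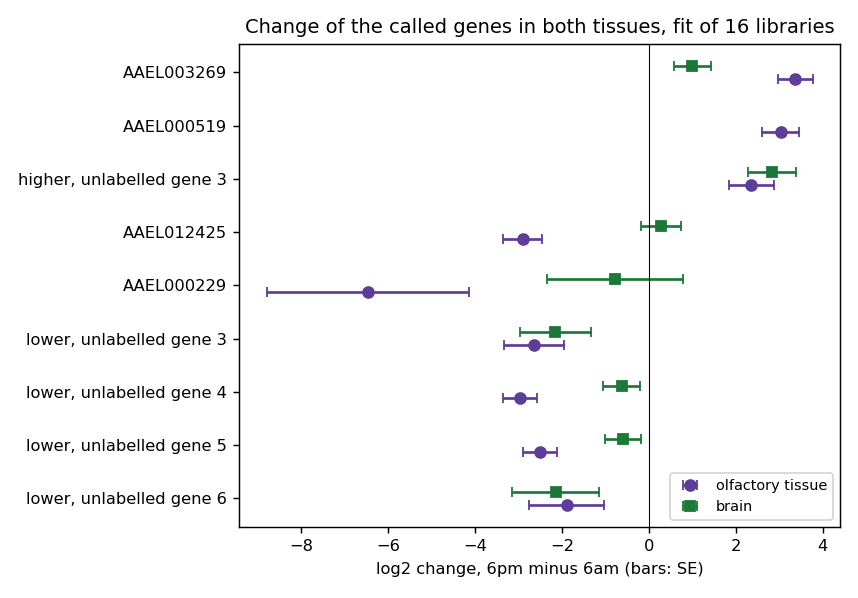
Log2 change from 6am to 6pm (horizontal axis, bars are SE) of the 9 called genes in olfactory tissue (circles) and brain (squares), from a fit of 16 libraries; AAEL000519 has no brain value because its 6am libraries there held 0 counts. AAEL012425 is at 0.27 in brain, and the other 7 squares lie on the same side of 0 as the circles.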

How the data were processed

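RNA was extracted with Trizol and libraries were prepared with NEBNext Ultra II reagents, according to the protocols in the labels. The authors deposited raw read counts per gene, 1 headerless file per library, in the layout of htseq-count. The submitters' processing notes name bcl2fastq, FastQC, STAR and HTSeq; versions, genome build, annotation release and strand setting were not given in the sources used here. Counts of overlapping, antisense or near-identical genes are therefore uncertain. In the 8 *Aedes* olfactory files 22 stretches of 64 to 224 characters were overwritten. Damaged lines were treated as missing, which removed 406 of 19804 genes (2.05%) missing in any of 16 *Aedes* libraries; an altered digit can go unseen. Lines that name no gene were left out, and the lines of genes held 41.4 to 69.7% of the reads of an olfactory library.

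Counts were tested with edgeR 4.0.16 in R 4.3.3 (TMM, filterByExpr, robust quasi-likelihood, threshold 0.05 on the Benjamini-Hochberg adjusted p), with DESeq2 1.42.0 as an alternative, and the script was tested on simulated data. Each SE is the log2 change divided by the square root of its F value. Of the called genes, the 2 with the smallest p in each direction are identified; uncalled genes are the 6 with the largest change per direction among those that passed the stated limits. Planned gene and marker lists and promoter motifs needed names or sequences not used here. The members, lists and tests were chosen with earlier results of these data known.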

Additional observations from a re-analysis of the deposited data

How the results depend on the processing

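Among the alternatives to the 9 called genes that kept all 8 olfactory libraries, the count stayed within a factor of 1.5 with DESeq2 size factors (9), a mean of at least 50 counts (8), the share of reads outside genes as a covariate (10) and genes near overwritten stretches left out (7). It was 27 with DESeq2 and 186 without a low-count filter, and both held the same 9. With the replicate number as a block it was 52, with the 9 among them. The same-numbered libraries of 6am and 6pm deviated from their group means with correlations of 0.130 and 0.136. With 2 libraries at 6am their deviations mirror each other, so these values are not 2 separate checks. With 2 pairs and no statement in the labels, the samples share only a number. The count was 0 in the fit of 6am and 6pm alone and 0 to 35 with 1 library left out. The cause of these shifts was not tested. Over 141 pairs of a called gene and an alternative, direction was kept in all, and 51 no longer passed. The alternatives reuse the same libraries, which did not overlap in these genes, so the kept direction is no separate support. The tissue difference gave 0 genes in all alternatives run (edgeR, 216 to 1392 at an unadjusted p under 0.05) except DESeq2, which gave 1; with the replicate block within tissue it was 0. Medians of the gene lists were not run, since the identifiers could not be matched to names. Low counts limit how well the change is known in genes such as AAEL000229, with 4 counts at 6pm.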

Other observations

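Both groups of genes below were noticed in the plot of change against level, so they have no test. The first lies near the top of the range of levels. Of 145 genes with a mean of 1000 to 4000 CPM over the 8 libraries, 123 had a negative fitted change, with a median of -0.56 (quartiles -0.78 and -0.11), where the median over all genes tested was -0.01. Of these, 0 were called (edgeR; DESeq2 calls were not counted for these genes), where 0.0905% of all genes tested were. An unadjusted p under 0.05 (edgeR) was found for 6 of them (4.14%), below the 6.06% of all genes tested. In 58 of the 145 (40%) all 6pm libraries lay below both 6am libraries, against 11.6% of all genes tested. Their median level was 2437 and 1771 CPM in the 6am libraries and 1061, 1721 and 1526 CPM in the 6pm libraries, so that 6pm replicate 1 was lowest and 6am replicate 1 highest. Leaving out 6am replicate 1 gave a median of -0.30, leaving out 6pm replicate 1 gave -0.37 and leaving out 6am replicate 3 gave -0.74, and it was negative in all 16 alternatives.

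A tail of 36 genes had a fitted log2 change of -4 or lower and at least 5 CPM at 6am, and AAEL000229 was the called gene among them. In 35 of the 36 the highest of the 8 olfactory libraries was 6am replicate 1. Their median level was 61.4 CPM there, 5.38 CPM in 6am replicate 3, 0, 3.67 and 0.426 CPM in the 6pm libraries, 3.49 and 3.70 CPM at 12pm and 1.23 CPM at 12am. In 18 of the 36 all 6pm libraries lay below both 6am libraries, as in 11.6% of all genes tested, and nothing is read from that since the 36 were chosen by their change. Without 6am replicate 1, 25 of the 36 were still tested and their median change was -2.77. 6am replicate 1 also had the larger share of reads outside annotated genes among the 6am libraries, 24.3% against 12.1%. With that share as a covariate the median change of the 36 was -4.53, against -5.34 in the reported fit. A drop of similar size came from fits that did not use the share: DESeq2 gave -4.70, and dropping 6pm replicate 1 or 3 gave -4.52 or -4.65. The median was larger in size when 6pm replicate 2 (-6.85) or 6am replicate 3 (-6.33) was dropped. The olfactory library with the largest share, 12pm replicate 2 at 35.0%, had a median level of only 3.70 CPM in these genes. The cause of the tail was not tested.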
